A study of Mus musculus with 12 samples.

Results

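The genes described here are those of the brain's small vessels: endothelial cells, the pericytes and smooth muscle cells around them, and the blood-brain barrier they form. They were taken by name from a list of 35 genes, chosen with earlier results of these data known. The rule that kept them used no difference between groups. It asked for a mean over 12 libraries of at least 0.5 FPKM (fragment counts divided by transcript length and library size). This left 34 of the 35, among 16203 genes of 27131 in the table that passed the same minimum. Just inside it was Kcnj8, with a mean of 0.777 FPKM. The listed gene outside it was Cav1, which encodes the coat protein of caveolae and averaged 0.0982 FPKM. Of the 34 genes, 24 were classed here as endothelial and 10 as mural (pericyte or smooth muscle).

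Brain RNA came from mice of 3 groups with 4 libraries each, all aged 6 weeks and on a C57BL/6 background. Mice of the Old and the New strain were Plat-/-, 2 independent strains named as in the sample titles, and WT mice had the intact gene. Plat encodes tissue-type plasminogen activator, a protease that endothelial cells release into blood to start clot breakdown and that neurons also make. The sources used here give neither the alleles, nor the sex of the mice, nor lane assignments. WT mice were bought from a supplier while the Plat-/- mice were kept in a pathogen-free facility, so origin and genotype cannot be told apart in any comparison with WT. Nothing states that a group's mice came from separate litters, so p-values measure the spread between these libraries only.

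The endothelial cells of brain capillaries are sealed to each other by tight junctions and hold few transport vesicles, so that most solutes cross only through carriers in their membranes. Pericytes sit in the capillary basement membrane, are recruited by platelet-derived growth factor B from the endothelium, and are needed for the barrier to form and hold. Smooth muscle cells take their place around arterioles, where they set the vessel's width. Tissue-type plasminogen activator has been studied in mouse brain as a protease that can open this barrier after injury, partly by acting on platelet-derived growth factor C.

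Plat itself stood at 1.68, 1.87, 1.39 and 2.09 FPKM in Old and 2.82, 2.77, 3.15 and 2.77 FPKM in New, against 9.83, 8.01, 8.94 and 6.93 FPKM in WT. Every library labelled Plat-/- was below every WT library, which fits the labels; the part of the gene that was removed is not given. The labelled tissue is cerebral cortex, although the protocol describes whole brains without olfactory bulb and cerebellum. The cortical marker Slc17a7 (161.5 to 253.8 FPKM) and the striatal marker Drd2 (9.43 to 13.6 FPKM) were present in all 12 libraries. Sums of FPKM per library ran from 385096 to 527104, and 13755 to 14198 genes reached 1 FPKM. Read depth is unknown. The libraries Old 1 and WT 4 resembled each other (Spearman correlation over tested genes 0.964) more than the other 10 (0.921 to 0.939), and those 10 were alike (0.959 to 0.972). Counts and medians for each pair of groups are therefore also given without these 2 libraries. Differences of single genes without them are given only for some genes. The Y-linked gene Ddx3y reached 1 FPKM in Old 1, Old 4, New 1 and WT 4, and was at or near 0 in the other 8 libraries.

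Vessel genes were detected in all 12 libraries at group means that ran, per length of transcript, from 0.702 to 116.8 FPKM in WT. Bsg, which encodes basigin, a partner that carries lactate transporters to the membrane, was the highest in WT at 116.8 ± 6.22 FPKM (mean ± SD, n = 4, as for all such values). Tjp1 (23.8 ± 3.55 FPKM) and the pericyte genes Vtn (18.9 ± 1.74 FPKM) and Rgs5 (16.5 ± 3.26 FPKM) followed it in WT. Kcnj8, Sox17, Foxq1, Anpep and Notch3 were the lowest, at 0.702 to 1.24 FPKM in WT. All of these are levels in bulk tissue, and what part of each came from vessel cells was not measured. In the 10 libraries that resembled each other, the coefficient of variation of a gene ran from 2.56% for Bsg and 3.22% for Tjp1 to 22.6% for Slc2a1 and 25.2% for Sox17.

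**Figure D1:**
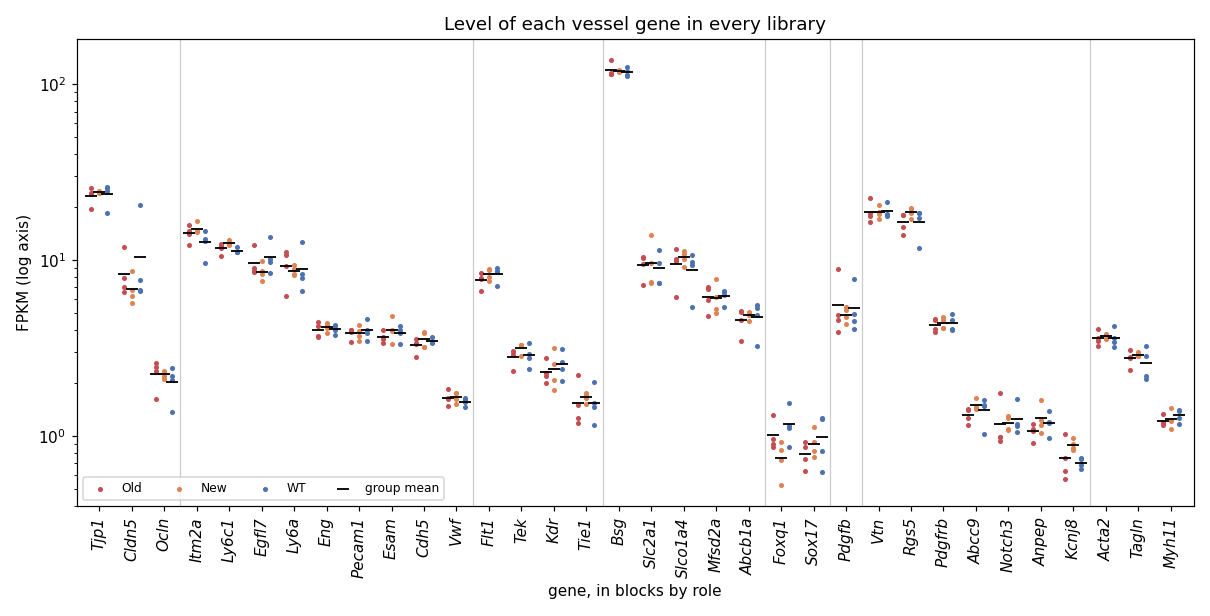
FPKM (log axis) of the 34 vessel genes, in blocks by role, in each library of Old, New and WT. Points of the 3 groups overlap for nearly every gene, from Bsg (111.0 to 137.3 FPKM) down to Kcnj8 (0.567 to 1.03 FPKM), and WT 4 lies far above the others for Cldn5 (20.5 FPKM).

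Old was compared with WT to ask whether vessel genes differ in brains without tissue-type plasminogen activator. No vessel gene was called different: 0 of 34 passed an adjusted p of 0.05 (limma on log2(FPKM + 0.1), Benjamini-Hochberg over 16203 genes), where 0.0247% of all tested genes passed. None of the 34 reached an unadjusted p of 0.05, against 1.67% of all tested genes, and no gene had its 4 Old libraries wholly above or below the 4 WT libraries, against 1.1% of all tested genes. The median difference, Old minus WT, was -0.027 on the log2 scale (12 genes above 0 and 22 below), beside 0.031 over all tested genes. Of all tested genes, 65.3% were above 0. All 34 intervals (95%) lay within a 2-fold difference either way and 30 lay within 1.5-fold. Without Old 1 and WT 4, 0 of 34 passed the adjusted p, against 8 of 16203 tested genes (limma). An unadjusted p under 0.05 was then reached by 0 of 34, against 982 of 16203. The median was then -0.053 (9 above 0 and 25 below), beside -0.0012 over all tested genes. In bulk tissue, fewer cells of a type and less RNA per cell cannot be told apart.

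New was set against the same WT libraries, so the comparisons of Old and of New with WT share them. Again 0 of 34 vessel genes passed the adjusted p, where 0.00617% of all tested genes passed, and the lowest adjusted p among them was 0.965 (limma). An unadjusted p under 0.05 was reached by 2 of 34, Foxq1 and Itm2a, against 2.22% of all tested genes. In 2 of 34, Ly6c1 and Kcnj8, all 4 New libraries lay above all 4 WT libraries, and in 0 of 34 all lay below, where 1.94% of all tested genes were wholly higher in New than in WT. The median difference, New minus WT, was 0.036 (22 above 0 and 12 below), beside 0.057 over all tested genes, of which 65.5% were above 0. Intervals lay within 2-fold for 32 of the 34 and within 1.5-fold for 28. The interval passed 2-fold for Cldn5 and Foxq1. Without Old 1 and WT 4, 0 of 34 passed the adjusted p, against 2 of 16203 tested genes (limma). An unadjusted p under 0.05 was then reached by 4 of 34, against 1744 of 16203. The median was then 0.0076 (18 above 0 and 16 below), beside -0.0062 over all tested genes. For the 24 endothelial genes the median was -0.0097 without these libraries and 0.028 with them.

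Old was also set against New, a comparison with no shared libraries between the 2 Plat-/- strains. Here 0 of 34 passed, where 0.0123% of all tested genes passed (limma), and 0 reached an unadjusted p of 0.05, against 1.14% of all tested genes. No gene had its 4 Old libraries wholly above or below those of New, against 1.79% of all tested genes. The median difference, Old minus New, was -0.063 (8 above 0 and 26 below), beside -0.027 over all tested genes, of which 42.2% were above 0. Of the 10 mural genes 9 were below 0, with a median of -0.067. Without Old 1 and WT 4, 0 of 34 passed the adjusted p in Old minus New, against 6 of 16203 tested genes (limma). An unadjusted p under 0.05 was then reached by 2 of 34, against 781 of 16203. The median was then -0.053 (11 above 0 and 23 below), beside 0.0053 over all tested genes. The mean of both strains minus WT also gave 0 of 34 at the adjusted p (0.0123% of all tested genes) and 0 at the unadjusted p (2.22%), with a median of 0.005 beside 0.044 over all tested genes.

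**Figure D2:**
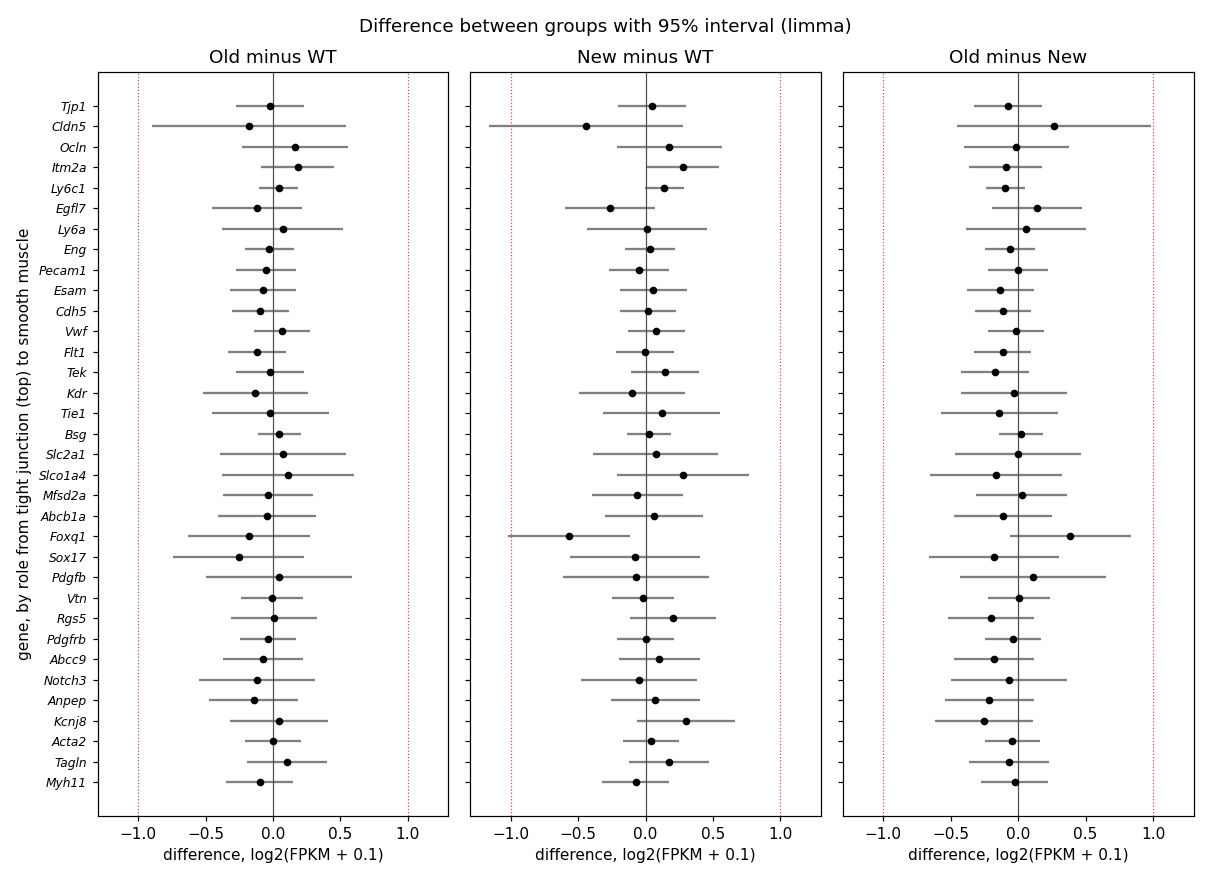
Difference between groups in log2(FPKM + 0.1) with its 95% interval from limma, for 34 vessel genes by role; dotted lines mark a 2-fold difference. All intervals of Old minus WT lie between the dotted lines, and in New minus WT the intervals of Cldn5 (-1.16 to 0.27) and Foxq1 (-1.02 to -0.11) pass the lower one.

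The tight junction genes were Cldn5, whose claudin sets how tightly brain endothelium is sealed against small molecules, Ocln, which encodes occludin, and Tjp1, which encodes the scaffold ZO-1. Cldn5 stood at 11.8, 6.59, 7.93 and 7.02 FPKM in Old, 6.77, 5.68, 6.21 and 8.66 FPKM in New and 6.78, 6.66, 7.73 and 20.5 FPKM in WT. WT 4, at 20.5 FPKM, was alone above 12 FPKM, and without it the groups overlapped closely. The difference was -0.18 in Old minus WT (interval -0.90 to 0.54) and -0.44 in New minus WT (interval -1.16 to 0.27). Without Old 1 and WT 4 these became 0.024 (-0.29 to 0.34) and -0.061 (-0.36 to 0.24), so the sign of the first depended on these libraries. Ocln stood at 1.61, 2.59, 2.35 and 2.47 FPKM in Old, 2.12, 2.30, 2.35 and 2.20 FPKM in New and 2.42, 2.20, 2.07 and 1.37 FPKM in WT. Its lowest libraries were Old 1 and WT 4, and the groups overlapped in every comparison. The difference for Ocln was 0.16 (SE 0.18) in Old minus WT and 0.18 (SE 0.18) in New minus WT, and without WT 4 alone the first was -0.0018. Tjp1 was at 19.6, 24.0, 25.6 and 23.9 FPKM in Old, 24.1, 24.5, 24.1 and 24.7 FPKM in New and 26.0, 25.8, 24.8 and 18.5 FPKM in WT. Old 1 and WT 4 again held the lowest values, and all other libraries lay between 23.9 and 26.0 FPKM. Without Old 1 and WT 4, New libraries were wholly below WT libraries for Tjp1, with a difference of -0.067 (interval -0.14 to 0.0052, adjusted p 0.489); on this basis 5.8% of all tested genes were wholly lower in New.

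The 9 endothelial surface and adhesion genes include Pecam1, Cdh5 and Esam, whose products hold endothelial cells to each other, Eng, a co-receptor of the transforming growth factor beta family, and Vwf, which encodes the clotting protein von Willebrand factor. These 5 genes stood at 1.46 to 4.79 FPKM over all libraries, and their differences ran from -0.093 (Cdh5) to 0.065 (Vwf) in Old minus WT and from -0.050 (Pecam1) to 0.081 (Vwf) in New minus WT. Esam had the widest intervals of these 5 genes, such as -0.32 to 0.17 in Old minus WT. Ly6c1, a surface protein of brain capillary endothelium in the mouse, gave 11.7, 12.1, 12.3 and 10.6 FPKM in Old, 12.2, 12.3, 13.0 and 12.3 FPKM in New and 11.2, 11.9, 11.1 and 11.1 FPKM in WT. All 4 New libraries were above all 4 WT libraries, while Old libraries spread across both. The difference in New minus WT was 0.14 (SE 0.066, interval -0.0055 to 0.28, adjusted p 0.965 with limma). The exact two-sided permutation p was 0.0286, the smallest that 4 against 4 allows. Complete separation fixes that p, so it adds nothing to the lack of overlap. Ly6c1 has a close copy, Ly6c2, which was at 0 to 0.0873 FPKM, and how the authors' counting divided reads between them is not known.

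Itm2a, an X-linked gene for a membrane protein abundant in brain endothelium, stood at 12.2, 14.1, 14.6 and 15.9 FPKM in Old, 14.5, 14.6, 16.8 and 14.6 FPKM in New and 13.2, 12.9, 14.6 and 9.68 FPKM in WT. The groups overlapped, since WT 3 was as high as most New libraries, and WT 4 was the lowest of all. The difference in New minus WT was 0.27 (interval 0.0019 to 0.55, unadjusted p 0.0487, adjusted p 0.965 with limma; exact permutation p = 0.114), and 0.15 without Old 1 and WT 4 (adjusted p 0.455). In Old minus WT it was 0.18 (interval -0.091 to 0.45). Egfl7, which encodes a secreted endothelial growth regulator, was at 12.2, 8.64, 8.99 and 8.50 FPKM in Old, 8.32, 7.61, 9.81 and 8.68 FPKM in New and 9.70, 10.1, 8.49 and 13.5 FPKM in WT. Its highest values were again WT 4 and Old 1, here above rather than below the rest. Ly6a, also called Sca-1, was at 6.22 to 12.6 FPKM with differences of 0.071 in Old minus WT and 0.013 in New minus WT.

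Among the growth factor receptors, Flt1 and Kdr bind vascular endothelial growth factor, and Tek and Tie1 form the angiopoietin receptor complex. Flt1 was the highest of them, at 6.64, 7.79, 7.91 and 8.39 FPKM in Old, 7.99, 8.74, 7.63 and 8.92 FPKM in New and 9.02, 8.68, 8.55 and 7.15 FPKM in WT. Old 1 was the lowest library for Flt1 and WT 4 the lowest of the WT group. The difference in Old minus WT was -0.12 (interval -0.33 to 0.095). Without Old 1 and WT 4 it was -0.12 (interval -0.26 to 0.017, adjusted p 0.857), and the 3 remaining Old libraries were then wholly below the 3 WT libraries. On the same basis Abcc9 and Notch3 were also wholly lower in Old, 3 of 34 vessel genes, where 5.2% of all tested genes were. Kdr ranged from 1.81 to 3.16 FPKM, Tek from 2.35 to 3.37 FPKM and Tie1 from 1.15 to 2.23 FPKM. All 4 receptors were below 0 in Old minus WT, from -0.13 (Kdr) to -0.019 (Tie1), and 2 of 4 were above 0 in New minus WT.

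The 5 transport genes were Bsg, Slc2a1, which encodes the glucose carrier GLUT1, Slco1a4, an organic anion carrier of brain capillaries in rodents, Mfsd2a, a carrier of lysophospholipids bearing docosahexaenoic acid that also holds down vesicle transport, and Abcb1a, the drug efflux pump P-glycoprotein. Bsg was at 137.3, 115.2, 115.1 and 116.4 FPKM in Old, 117.0, 118.3, 118.8 and 120.7 FPKM in New and 111.0, 112.8, 118.8 and 124.7 FPKM in WT. Old 1 alone exceeded 125 FPKM, and the difference in Old minus WT was 0.048 (interval -0.11 to 0.21). Slc2a1 gave 10.5, 10.2, 9.52 and 7.25 FPKM in Old, 7.53, 9.63, 13.8 and 7.38 FPKM in New and 11.4, 9.61, 7.44 and 7.36 FPKM in WT. Each group held both low and high libraries. The difference was 0.074 in Old minus WT and 0.074 in New minus WT, with intervals of -0.39 to 0.54 and -0.39 to 0.54. Slco1a4 was at 6.17, 10.1, 9.90 and 11.6 FPKM in Old, 10.9, 10.1, 9.10 and 11.2 FPKM in New and 9.74, 9.31, 10.6 and 5.39 FPKM in WT. WT 4 and Old 1 were the lowest by far. The difference for Slco1a4 in New minus WT was 0.28 (interval -0.21 to 0.77), and 0.060 (-0.13 to 0.25) without those libraries. Mfsd2a stood at 5.93, 6.98, 6.83 and 4.79 FPKM in Old, 4.98, 6.15, 7.78 and 5.28 FPKM in New and 6.57, 6.67, 5.42 and 6.29 FPKM in WT. New 3 was the highest and Old 4 the lowest, and the groups overlapped. The difference for Mfsd2a was -0.035 in Old minus WT and -0.061 in New minus WT, with intervals of -0.37 to 0.30 and -0.40 to 0.27. Abcb1a, whose close copy Abcb1b was at 0.38 to 0.82 FPKM, stood at 3.25 to 5.53 FPKM with differences of -0.047 in Old minus WT and 0.063 in New minus WT. Cav1, too low to be tested, ranged from 0.0448 to 0.185 FPKM.

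The transcription factor genes Foxq1 and Sox17, both active in brain endothelium and the second needed for barrier and arterial identity in mice, were among the lowest and most variable. Foxq1 stood at 1.31, 0.954, 0.899 and 0.860 FPKM in Old, 0.830, 0.524, 0.916 and 0.729 FPKM in New and 0.860, 1.14, 1.11 and 1.53 FPKM in WT. New held the 3 lowest libraries, but New 3 was above WT 1. The difference in New minus WT was -0.57 (SE 0.21, interval -1.02 to -0.11, unadjusted p 0.0185, adjusted p 0.965 with limma; exact permutation p = 0.0571). It was -0.43 without Old 1 and WT 4 (adjusted p 0.430), and in Old minus New the difference was 0.39 (interval -0.064 to 0.84). Sox17 was at 0.740, 0.921, 0.858 and 0.628 FPKM in Old, 0.756, 0.919, 1.12 and 0.821 FPKM in New and 1.24, 1.26, 0.619 and 0.821 FPKM in WT. WT 1 and WT 2 were the highest of all, and WT 3 was the lowest. The difference was -0.26 in Old minus WT (interval -0.74 to 0.23) and -0.078 in New minus WT (interval -0.56 to 0.40).

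Pdgfb, the ligand with which endothelium recruits pericytes, stood at 8.89, 4.89, 4.57 and 3.91 FPKM in Old, 5.37, 5.17, 4.74 and 4.31 FPKM in New and 4.92, 4.49, 4.04 and 7.76 FPKM in WT. Old 1 and WT 4 were far above the other 10, which lay between 3.91 and 5.37 FPKM. Its difference was 0.042 in Old minus WT and -0.071 in New minus WT, with SE of 0.25. Pdgfrb, the receptor for this ligand on pericytes, was at 4.61, 3.89, 4.03 and 4.58 FPKM in Old, 4.75, 4.13, 4.10 and 4.56 FPKM in New and 4.00, 4.03, 4.59 and 4.95 FPKM in WT. The groups covered the same range, and the differences were -0.035 (interval -0.24 to 0.17) in Old minus WT and 0.00083 (interval -0.21 to 0.21) in New minus WT.

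Of the other pericyte genes, Kcnj8 and Abcc9 encode the pore and the regulatory subunit of a potassium channel gated by ATP, and Rgs5 a brake on G protein signalling. Kcnj8 gave 0.745, 0.632, 0.567 and 1.03 FPKM in Old, 0.83, 0.976, 0.894 and 0.850 FPKM in New and 0.734, 0.683, 0.745 and 0.645 FPKM in WT. All New libraries were above all WT libraries, and Old libraries lay on both sides of them. Separation of New from WT by itself fixes the exact permutation p at 0.0286, the smallest that 4 against 4 allows. The difference for Kcnj8 was 0.30 in New minus WT (interval -0.064 to 0.66, adjusted p 0.965 with limma; exact permutation p = 0.0286) and 0.045 in Old minus WT. Its partner Abcc9 stood at 1.15, 1.43, 1.40 and 1.26 FPKM in Old, 1.44, 1.64, 1.42 and 1.45 FPKM in New and 1.49, 1.59, 1.47 and 1.03 FPKM in WT. Abcc9 overlapped between all groups, with differences of 0.10 in New minus WT and -0.075 in Old minus WT. Rgs5 was at 13.9, 18.0, 18.0 and 15.5 FPKM in Old, 17.1, 19.6, 19.7 and 18.5 FPKM in New and 18.6, 17.2, 18.4 and 11.7 FPKM in WT. WT 4 and Old 1 were the lowest, and in Old minus New the difference was -0.20 (interval -0.52 to 0.12). Anpep, which encodes aminopeptidase N, was at 1.09, 0.912, 1.17 and 1.07 FPKM in Old, 1.16, 1.24, 1.04 and 1.60 FPKM in New and 1.39, 0.971, 1.19 and 1.19 FPKM in WT. New 4 was the highest and Old 2 the lowest, and in Old minus New the difference was -0.22 (interval -0.54 to 0.11).

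Vtn, which encodes vitronectin, a matrix protein that pericytes secrete and that binds the plasminogen activator inhibitor PAI-1, stood at 22.6, 16.5, 17.8 and 18.6 FPKM in Old, 18.4, 17.1, 18.8 and 20.6 FPKM in New and 18.4, 18.1, 17.8 and 21.5 FPKM in WT. Old 1 and WT 4 were the highest, and the differences were -0.0097 (interval -0.24 to 0.22) in Old minus WT and -0.017 (interval -0.25 to 0.21) in New minus WT. Notch3, a receptor of mural cells, was at 1.75, 0.983, 0.979 and 0.929 FPKM in Old, 1.09, 1.29, 1.26 and 1.08 FPKM in New and 1.16, 1.14, 1.05 and 1.61 FPKM in WT. Old held both the highest library, Old 1, and the 3 lowest. Without Old 1 and WT 4 the Old libraries were wholly below those of WT, by -0.19 (interval -0.42 to 0.035, adjusted p 0.857), and below those of New, by -0.27 (interval -0.48 to -0.052, adjusted p 0.962). Tie1 and Bsg were also wholly lower in Old than in New on that basis, where 2.62% of all tested genes were.

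The smooth muscle genes Acta2, Tagln and Myh11 encode contractile proteins. Acta2 was at 3.26, 3.61, 3.46 and 4.06 FPKM in Old, 3.79, 3.73, 3.57 and 3.69 FPKM in New and 3.60, 4.20, 3.43 and 3.21 FPKM in WT. New libraries were the most alike and lay inside the range of the other groups. The difference for Acta2 was -0.0029 in Old minus WT (interval -0.21 to 0.20) and 0.039 in New minus WT (interval -0.17 to 0.25). Tagln ranged from 2.11 to 3.26 FPKM and Myh11 from 1.09 to 1.44 FPKM. For Tagln the difference in New minus WT was 0.17 (interval -0.12 to 0.47), and 0.29 without Old 1 and WT 4 (adjusted p 0.432).

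The deviations of Old 1 and WT 4 followed the base composition of the vessel transcripts. Relative to the mean of the other 10 libraries, Cldn5 was 1.69-fold in Old 1 and 2.93-fold in WT 4, Pdgfb 1.91-fold and 1.67-fold, and Notch3 1.59-fold and 1.47-fold. The longest transcripts of these genes have a GC content of 60.5%, 60.0% and 59.6%. In the other direction, Slco1a4 was 0.601-fold in Old 1 and 0.525-fold in WT 4, Itm2a 0.836-fold and 0.664-fold, and Rgs5 0.77-fold and 0.646-fold, with GC contents of 40.3%, 41.7% and 41.1%. Of the 34 genes, 29 deviated in the same direction in both libraries.

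Across the 34 genes the deviation and the GC content correlated at a Pearson coefficient of 0.86 in Old 1 and 0.85 in WT 4. These are descriptions of single libraries, since genes within a library are not independent replicates. For the 4 genes under 45% GC (Ocln, Itm2a, Slco1a4 and Rgs5) the median deviation was -0.43 in Old 1 and -0.67 in WT 4, beside -0.54 and -0.70 over all tested genes of that GC content. For the 10 genes of at least 55% it was 0.50 in Old 1 and 0.49 in WT 4, beside 0.49 and 0.40. By these medians, the vessel genes moved much as other genes of like composition did in these libraries. Cldn5 in WT 4 went further, with a deviation of 1.55 against the median of 0.40 over all tested genes of at least 55%. GC content was known for 86.4% of tested genes. What part base composition had in the differences between groups was not tested beyond leaving out the libraries: without them the median SE of a vessel gene in New minus WT was 0.090, against 0.141 with them.

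**Figure D3:**
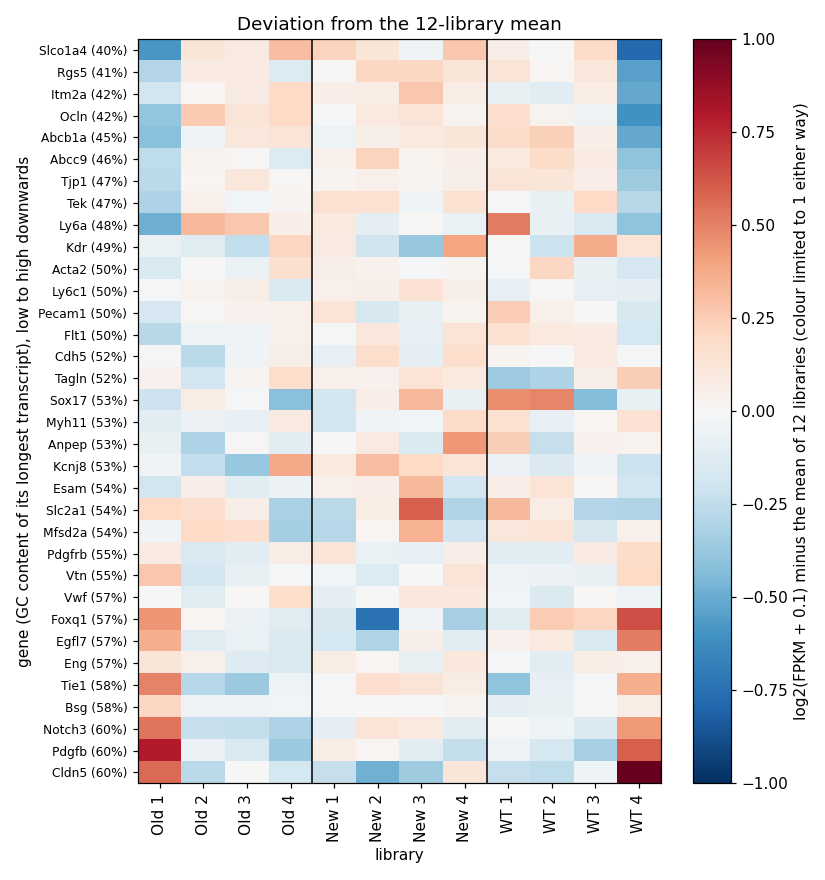
Deviation of log2(FPKM + 0.1) from the 12-library mean (colour) for 34 vessel genes in rows, ordered by the GC content of the longest transcript, and 12 libraries in columns. Old 1 and WT 4 run from low values at low GC (Slco1a4) to high values at high GC (Cldn5), and the other 10 libraries show no such gradient.

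**Figure D4:**
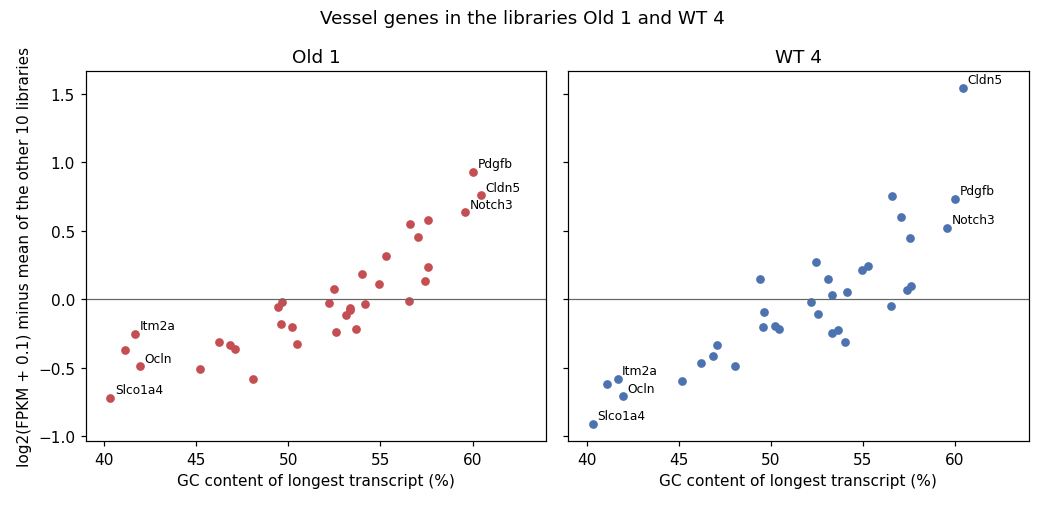
Deviation of each of 34 vessel genes in Old 1 and in WT 4 from the mean of the other 10 libraries, in log2(FPKM + 0.1), against the GC content of the longest transcript in percent. Points climb from Slco1a4 (40.3% GC) at lower left to Pdgfb and Cldn5 (60.0% and 60.5% GC) at upper right in both libraries, and Cldn5 in WT 4 lies highest.

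Among the 10 other libraries, 3 barrier carriers divided the libraries in the same way, across the groups. Slc2a1 was at 7.25 to 7.53 FPKM in Old 4, New 1, New 4 and WT 3 and at 9.52 to 13.8 FPKM in the other 6. The same 4 libraries were the lowest 4 for Mfsd2a (4.79, 4.98, 5.28 and 5.42 FPKM in Old 4, New 1, New 4 and WT 3) and the highest 4 for Slco1a4 (11.6, 10.9, 11.2 and 10.6 FPKM). New 3, the highest library for Slc2a1 (13.8 FPKM) and Mfsd2a (7.78 FPKM), was the lowest of the 10 for Slco1a4 (9.10 FPKM). The split was not particular to carriers. In the same 4 libraries Pdgfrb was at 4.56 to 4.75 FPKM, against 3.89 to 4.13 FPKM in the other 6. Kdr was at 2.55 to 3.16 FPKM in these 4, against 1.81 to 2.41 FPKM. How many other genes divided the libraries so was not counted. The gap between the 2 sets of libraries was widest for Slc2a1 (7.53 to 9.52 FPKM). It was narrower for Mfsd2a (5.42 to 6.15 FPKM) and Slco1a4 (10.1 to 10.6 FPKM), and the sets were read from these same values. A pooled correlation may therefore not describe the carriers well, and no coefficient is given for them. All 561 pairs of the 34 genes were examined, a step chosen after the values were seen. None passed Benjamini-Hochberg adjustment (permutation tests, 100000 permutations), and 9.98% had an unadjusted p under 0.05. For the 3 carriers these tests used the pooled Pearson r over the 10 libraries, so the same limit holds. The adjusted p was 0.0729 for Slc2a1 with Mfsd2a and for Slco1a4 with Mfsd2a, and 0.102 for Slco1a4 with Slc2a1. No relation between the carriers is drawn from these values. Itm2a and Tagln reached the same adjusted p, with Pearson r = 0.87 (permutation p = 0.00024) and Spearman rho = 0.79 (permutation p = 0.0086, adjusted 0.322) over 10 libraries, and r = 0.91 without the 2 libraries farthest from the median of Itm2a. The libraries WT 1 and WT 2 were low for both. The 2 libraries left out were New 3 and WT 2. WT 1 stayed in, so this value cannot show whether r rests on WT 1 and WT 2.

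**Figure D5:**
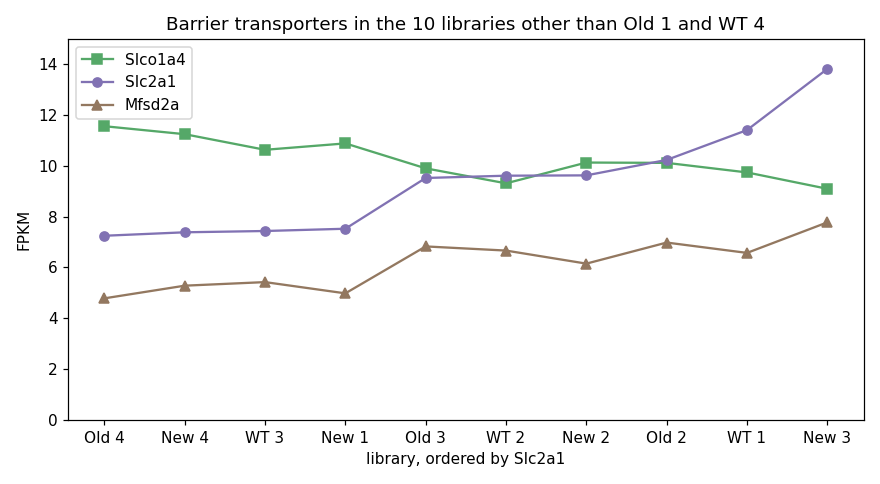
FPKM of Slc2a1, Mfsd2a and Slco1a4 in the 10 libraries other than Old 1 and WT 4, ordered by Slc2a1. The 4 libraries at the left (Slc2a1 at 7.25 to 7.53 FPKM), which come from all 3 groups, are low for Mfsd2a and high for Slco1a4.

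Whether upstream sequence had any part in how these 3 carriers varied was not tested. The carriers were picked after their values were seen, and their upstream sequences are given as a description. Each comes from the 250 bases before the start of the gene in RefSeq's GRCm38.p6 table (the build called mm10), on the gene's strand. Capitals mark the core of the hypoxia response element in both its forms, that is ACGTG as well as the variant GCGTG, and the core bound by ETS factors, that is AGGAAG, searched on both strands. The last 34 bases of the Slc2a1 window lie inside the GENCODE gene model, where they are transcribed, and are not printed, so its sequence is the first 216 bases, chr4:119108495-119108710. The windows are chr4:119108495-119108744 (plus strand, 66.4% GC) for Slc2a1, chr4:122961189-122961438 (minus strand, 61.6% GC) for Mfsd2a and chr6:141856221-141856470 (minus strand, 39.2% GC) for Slco1a4.
Slc2a1: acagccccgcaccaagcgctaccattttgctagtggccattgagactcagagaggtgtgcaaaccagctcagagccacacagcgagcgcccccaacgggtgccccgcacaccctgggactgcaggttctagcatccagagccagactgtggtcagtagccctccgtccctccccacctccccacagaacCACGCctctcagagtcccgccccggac
Mfsd2a: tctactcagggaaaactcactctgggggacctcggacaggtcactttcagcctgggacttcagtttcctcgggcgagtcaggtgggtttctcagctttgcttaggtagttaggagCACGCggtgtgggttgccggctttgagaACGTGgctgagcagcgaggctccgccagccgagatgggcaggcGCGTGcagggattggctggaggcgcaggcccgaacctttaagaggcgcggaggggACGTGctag
Slco1a4: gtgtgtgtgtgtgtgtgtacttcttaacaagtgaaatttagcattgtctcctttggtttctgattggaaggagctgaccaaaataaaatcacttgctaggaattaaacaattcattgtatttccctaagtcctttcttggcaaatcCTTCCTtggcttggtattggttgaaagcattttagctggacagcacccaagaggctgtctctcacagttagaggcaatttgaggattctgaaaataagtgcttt
The hypoxia core was found 2 times in the Slc2a1 window, 4 times in the Mfsd2a window and not in the Slco1a4 window, which held 1 ETS core. For Slc2a1 only 1 of the 2 lies wholly in the printed bases, and the other, which is not capitalised, crosses the GENCODE start. CpG dinucleotides numbered 13 in the Slc2a1 window, 17 in the Mfsd2a window and 0 in the Slco1a4 window. Of 32851 such windows in the table, 38.6% held a hypoxia core and 29.48% an ETS core. Windows were found for 22 of the vessel genes (26 windows), of which 38.46% held the first and 34.62% the second. A match describes these letters only and is not a binding site.

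Genes that act with the vessel genes gave few differences either. In the 9 pathway lists no gene was called in any comparison. Lack of overlap between groups is given for named genes only, not for whole lists. Ifitm1, an interferon-induced membrane protein gene listed among other pericyte genes and one of a family of close copies between which reads may be divided, stood at 1.65, 1.24, 1.65 and 2.03 FPKM in Old, 1.64, 1.44, 1.83 and 1.96 FPKM in New and 0.882, 0.662, 1.06 and 0.693 FPKM in WT. Every Plat-/- library was above every WT library. Of all tested genes, 1.1% had Old wholly above or below WT, and 1.94% had New wholly above WT. The difference was 0.92 (SE 0.18) in Old minus WT and 0.99 (SE 0.18) in New minus WT, with unadjusted p of 0.000255 and 0.000137 but adjusted p of 0.688 and 0.695 (limma, over 16203 genes). It kept its sign under all 22 alternatives, with adjusted p of 0.281 to 1 for Old and 0.162 to 1 for New. The other pericyte list had 22 tested genes, of which 11 were above 0 in Old minus WT and 14 in New minus WT. Zic1, a transcription factor gene also active in neurons, was at 10.2, 10.4, 9.25 and 10.2 FPKM in Old, 8.48, 7.61, 8.37 and 9.00 FPKM in New and 8.36, 8.44, 8.54 and 7.02 FPKM in WT. Old libraries were all above WT libraries, with a difference of 0.31 (SE 0.084, unadjusted p 0.00336, adjusted p 1, limma), while New minus WT was 0.049. Mcam, a cell adhesion gene, had 0.15 in Old minus WT and 0.30 in New minus WT (adjusted p 0.965).

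Of 12 tested genes for other tight and adherens junction proteins, 9 were above 0 in Old minus WT and 9 in New minus WT, with medians of 0.023 and 0.034. Ctnnb1, which encodes beta-catenin, had 0.10 and 0.13 for these differences. Its New libraries (89.3 to 92.7 FPKM) lay wholly, though narrowly, above its WT libraries (71.1 to 89.0 FPKM). Of all tested genes, 1.94% had New wholly above WT. Of 19 other barrier transporters, 15 were above 0 in each, with medians of 0.049 and 0.11, where 65.3% and 65.5% of all tested genes were above 0. The organic anion carrier Slc22a8 was at 2.90, 3.21, 3.41 and 3.85 FPKM in Old, 3.91, 4.11, 3.59 and 4.70 FPKM in New and 2.69, 2.85, 4.02 and 2.75 FPKM in WT. New libraries were high but overlapped WT 3, and the difference in New minus WT was 0.41 (unadjusted p 0.0133, adjusted p 0.965, limma).

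Of 18 genes in the Wnt pathway that induces the barrier, 10 were above 0 in Old minus WT and 11 in New minus WT. The receptor Fzd4 was at 2.21, 2.14, 1.96 and 2.31 FPKM in Old, 2.57, 2.67, 2.42 and 1.86 FPKM in New and 1.90, 1.99, 1.96 and 1.47 FPKM in WT. Its ligand Norrin, encoded by Ndp, was at 1.49, 1.84, 2.16 and 2.23 FPKM in Old, 2.22, 2.47, 2.28 and 2.27 FPKM in New and 1.78, 1.48, 2.43 and 1.19 FPKM in WT. Foxc1, a transcription factor gene of the same list, was below 0 in both, at -0.17 in Old minus WT and -0.21 in New minus WT. Fzd4 and Ndp overlapped between New and WT, and neither passed: the differences in New minus WT were 0.36 for Fzd4 (unadjusted p 0.0182) and 0.45 for Ndp (unadjusted p 0.0356), each at an adjusted p of 0.965. Among 29 ligands and partners of the growth factor, Notch and transforming growth factor pathways, 17 were above 0 in Old minus WT and 18 in New minus WT. Angpt2 was at 0.19 in New minus WT (unadjusted p 0.0731, limma). Its New libraries (1.14 to 1.28 FPKM) lay wholly above its WT libraries (1.04 to 1.10 FPKM), where 1.94% of all tested genes did so. Of 12 genes of endothelial activation and leak, 6 and 10 were above 0. Vcam1, an adhesion molecule for leukocytes, had 0.12 in Old minus WT and 0.26 in New minus WT.

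Of 33 other endothelial markers, 15 were above 0 in Old minus WT and 18 in New minus WT, with medians of -0.024 and 0.074. Gkn3, an arterial endothelial gene in mouse brain, was at 1.46, 0.771, 0.368 and 0.407 FPKM in Old, 1.31, 1.95, 1.12 and 0.787 FPKM in New and 1.15, 0.708, 1.38 and 1.09 FPKM in WT. Its difference in Old minus WT was -0.61 (SE 0.38, adjusted p 1, limma), and the groups overlapped. Of 18 other smooth muscle genes 12 and 9 were above 0, and of 19 basement membrane genes 13 and 10. Col4a1, which encodes the main collagen of vascular basement membrane, was at 7.03, 5.76, 5.70 and 5.20 FPKM in Old, 4.44, 4.50, 5.85 and 4.27 FPKM in New and 4.07, 3.78, 4.23 and 5.56 FPKM in WT. Old libraries were high but overlapped WT 4, and the difference in Old minus WT was 0.42 (unadjusted p 0.0117, adjusted p 1, limma).

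Markers of other cells in the tissue were present in all groups, and none was at 0 in all 12 libraries. The summed level of 14 fibroblast markers was 55.2 to 72.1 FPKM in Old, 54.5 to 72.6 FPKM in New and 54.1 to 79.5 FPKM in WT, with the highest value in WT 4, where Col1a1 stood at 20.0 FPKM. The 11 astrocyte markers summed to 546.5 to 762.4 FPKM in Old, 728.5 to 743.8 FPKM in New and 488.6 to 758.1 FPKM in WT, and were lowest in WT 4 and Old 1. The 10 neuron markers were also lowest there, with sums of 1098 FPKM in WT 4 and 1253 FPKM in Old 1. Their sums in the other libraries were 1598 to 1730 FPKM. The 8 tested blood cell markers summed to 76.7 to 93.0 FPKM in Old, 60.3 to 92.4 FPKM in New and 71.6 to 111.7 FPKM in WT. The 10 oligodendrocyte markers summed to 1561 to 1760 FPKM in Old and 1624 to 1765 FPKM in New, against 1465 to 1551 FPKM in WT. These ranges did not meet, but the lowest Old library (1561 FPKM) was close to the highest WT library (1551 FPKM). Over all tested genes, 67.2% were above 0 in the mean of both strains minus WT. No marker gene of these lists was called in any comparison. Their part in the values of the vessel genes was not tested.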

How the data were processed

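The deposited table holds FPKM, made by the authors, for 12 libraries. Per the labels' protocols, RNA was selected by polyA and prepared with a TruSeq mRNA kit that does not mark strand, and 4 barcoded samples shared a lane; a label calls them depleted of ribosomal RNA, which differs. Per the submitters' processing notes, FastQC, TopHat2 2.0.9, Bowtie2 2.1.0, Cufflinks and Cuffdiff 2.1.1 were used with mm10. The annotation and the normalization between libraries: not given in the sources used here. FPKM holds no counts, so depth is unknown and no counting interval is given; overlapping genes and close copies are uncertain. No library pair held identical values.

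Values were analysed as log2(FPKM + 0.1), a scale that understates differences of low genes, for genes with a mean of at least 0.5 FPKM. The 3 groups entered 1 limma fit (version 3.58.1, R 4.3.3) with trended empirical Bayes, and p-values were adjusted by Benjamini-Hochberg over 16203 genes, with a threshold of 0.05. The procedure was tested on simulated data. These held no deviation shared by many genes of a library, such as that of Old 1 and WT 4, so its effect was not simulated. Exact permutation tests used all 70 assignments of 4 against 4. GC content came from the longest GENCODE M21 transcript (same build), and promoter sequences from RefSeq.

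Samples were grouped by their titles. The genes and lists were chosen with earlier results of these data known. Values in every library are given for genes that were called, did not overlap between groups, were among the 5 with the largest difference in a comparison or led their role in WT, plus the pathway genes of smallest p, not all of which are reported here; Abcc9, Egfl7, Mfsd2a, Notch3, Pdgfrb and Slc2a1 were added after their values were seen. Alternatives changed the pseudocount, filter, scaling, weights, libraries and covariate.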

Additional observations from a re-analysis of the deposited data

Results flagged for a closer look

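In each group of 4 libraries, a vessel gene is listed here where its highest or lowest library lay apart from the other 3 by more of the range than Dixon's 95% critical value for 4 values. Of 102 groups examined, 11 (10.8%) did so, where chance gives about 1 in 20, and 6 of the 11 were in Old 1 or WT 4.

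In Old 1, Egfl7 was at 12.2 FPKM (the other Old libraries 8.50 to 8.99 FPKM), Bsg at 137.3 FPKM (115.1 to 116.4 FPKM) and Notch3 at 1.75 FPKM (0.929 to 0.983 FPKM). In WT 4, Cldn5 was at 20.5 FPKM (the other WT libraries 6.66 to 7.73 FPKM), Tjp1 at 18.5 FPKM (24.8 to 26.0 FPKM) and Vtn at 21.5 FPKM (17.8 to 18.4 FPKM).

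Among New libraries, Ly6c1 was at 13.0 FPKM in New 3 (the others 12.2 to 12.3 FPKM), Itm2a at 16.8 FPKM in New 3 (14.5 to 14.6 FPKM), Tek at 2.85 FPKM in New 3 (3.27 to 3.28 FPKM) and Abcc9 at 1.64 FPKM in New 2 (1.42 to 1.45 FPKM). In WT 2, Ly6c1 was at 11.9 FPKM (11.1 to 11.2 FPKM in the other WT libraries).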

How the results depend on the processing

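The count of vessel genes called stayed at 0 in each comparison under all 87 alternative counts. Of the median differences, 247 stayed within the spread between libraries and 14 moved beyond it. For single genes, direction was counted only for the 5 largest differences of each comparison between 2 groups and for Ly6c1 in New minus WT. Of these, 342 kept their direction and 4 reversed. Some differences outside that count also reversed without Old 1 and WT 4. Pdgfb in New minus WT went from -0.071 to 0.12, and Slc2a1 in Old minus WT from 0.074 to -0.068. The cause of these moves was not tested.

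Over all 34 genes the median of Old minus WT was -0.066 under quantile normalization. That of New minus WT became -0.022 under median ratio scaling, -0.0065 under quantile normalization and -0.0017 with library weights, and for the endothelial genes -0.030, -0.014 and -0.032. That of the mean of both strains minus WT became -0.038 and -0.043 under the 2 scalings, the same for the endothelial genes, whose value with library weights was -0.046. So the sign of these small medians depends on scaling; the share of vessel genes above 0 in New minus WT was 64.7%, but 41.2% under median ratio scaling and 17 of 34 under quantile normalization. The median ratio factor was 0.915 for Old 1, 0.847 for WT 4 and 1.014 to 1.033 for the others.

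Leaving out 1 library at a time, the median over the 34 genes ran from -0.047 to -0.012 in Old minus WT, 0.0076 (without WT 4) to 0.043 in New minus WT, -0.081 to -0.033 in Old minus New and -0.026 to 0.023 in the mean of both strains minus WT, with the last below 0 without WT 4. Cldn5 in Old minus WT reversed to 0.024 without Old 1 and WT 4, to 0.031 with library weights and to 0.20 without WT 4 (range over single libraries left out -0.36 to 0.20), and Ocln to -0.0018 without WT 4 (-0.0018 to 0.31). No paired analysis was possible because the labels give the groups no shared replicate numbers.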
